A study of Homo sapiens with 6 samples.

Results

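The genes SET, ANP32A, ANP32B, ANP32E, NAP1L1, NPM1 and NCL encode acidic histone chaperones. They were taken by gene symbol, which gave 7 of the 61806 genes listed, and pseudogene copies were kept apart from them. The cells were MG63, an established human osteosarcoma line. In 3 libraries the cells carried a stable short hairpin RNA against FTO (shFTO), and in 3 libraries a stable control hairpin (shNC). The labels call the 3 libraries of a group biological replicates and do not say whether the cells were clones or pools. FTO encodes a demethylase that removes the methyl group of N6-methyladenosine (m6A) from RNA, and the design asked which transcripts depend on it. Values below are FPKM, fragments scaled to exonic length and to the library total, as mean ± SD with n = 3 per group unless stated, and values of single libraries follow the order of replicates 1, 2 and 3.

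Histone chaperones bind free histones and hand them to or take them from DNA, which keeps the strongly basic histones from sticking to other molecules. Many of them do this with a long run of aspartate and glutamate at or near the end of the protein. SET and the ANP32 proteins also block histone acetylation and inhibit phosphatases of the PP2A family. NAP1L1 carries histones H2A and H2B, and nucleophosmin (NPM1) and nucleolin (NCL) work mainly in the nucleolus, where ribosomes are built.

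The acidic runs can be read in the transcripts. In GENCODE release 29 the coding part was split into codons, and those for aspartate and glutamate (GAA, GAG, GAC and GAT) were counted. They made up 38.1% of the codons of ANP32E, 37.5% of ANP32B, 35.7% of ANP32A and 31.8% of SET. The shares were 26.6% for NAP1L1, 24.8% for NCL and 22.1% for NPM1, against a median of 11.4% over 19537 protein-coding transcripts. A share as high as that of NPM1, the lowest of the 7, was found in 1.15% of those transcripts. The stretch of 20 codons with the most acidic codons is shown for SET, ANP32B, NAP1L1, NPM1 and NCL, 5′ to 3′, with acidic codons in capitals, because this feature is what the genes have in common.
SET: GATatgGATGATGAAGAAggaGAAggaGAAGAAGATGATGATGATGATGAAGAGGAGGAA
ANP32B: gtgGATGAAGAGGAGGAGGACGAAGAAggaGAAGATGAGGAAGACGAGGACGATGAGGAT
NAP1L1: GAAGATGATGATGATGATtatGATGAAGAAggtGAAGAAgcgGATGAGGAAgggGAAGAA
NPM1: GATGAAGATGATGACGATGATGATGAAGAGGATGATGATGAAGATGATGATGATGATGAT
NCL: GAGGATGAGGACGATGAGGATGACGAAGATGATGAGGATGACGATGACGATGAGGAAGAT
All 20 codons were acidic in NPM1 and NCL, 18 in ANP32B, 17 in SET and 16 in NAP1L1. The stretches lay at codons 224 to 243 of 277 in SET, 165 to 184 of 251 in ANP32B and 348 to 367 of 391 in NAP1L1. They lay further from the end in NPM1, at 161 to 180 of 294, and in NCL, at 185 to 204 of 710. A stretch with 16 or more was found in 1.01% of the transcripts compared.

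The deposited values rest on few reads. The whole reads behind the FPKM values could be recovered and came to between 93629 and 106245 per library, and 7057 genes had at least 1 read. FTO was listed at 0 FPKM in all 6 libraries. An expected 3 reads, about the upper 95% limit of counting error for a count of 0, would be 1.32 to 1.5 FPKM. A lower FTO level in shFTO could therefore not be checked. Whether these totals are all the reads sequenced or only some of them is not known, so depth here means the reads behind the deposited values. Of 11 markers of mesenchymal and bone cells 8 had reads. Their sums were 101 to 110 reads in shFTO libraries and 74 to 105 in shNC libraries. ALPL, SPP1 and BGLAP, markers of osteoblast differentiation, were at 0. Epithelial markers had reads for 2 of 5 genes (0 to 4 reads in shFTO and 0 to 1 in shNC libraries), endothelial markers for 1 of 3 (0 reads in shFTO and 0 to 1 in shNC libraries), and the 4 blood markers were at 0. EPCAM, CDH1 and KRT19 of the epithelial and CDH5 and VWF of the endothelial list were at 0 in every library. In RNA from whole cultures, fewer cells of a type and less RNA per cell cannot be told apart.

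The 7 genes differed far more from each other than between groups. Together they had 3679 reads, of which SET held 68.6% and NAP1L1 26.3%. In FPKM over all 6 libraries the order was SET, with a mean of 718, NAP1L1 with 95.1, ANP32B with 24.9, NCL with 14.6, NPM1 with 12.6, ANP32E with 8.91 and ANP32A with 0.885. Among the 7057 genes with reads they ranked 54, 255, 595, 841, 922, 1111 and 4110 by mean FPKM. The ranges of SET and NAP1L1 did not overlap with each other or with the genes after them. That of ANP32A lay under that of ANP32E by a narrow gap that rests on the lengths used. In shFTO replicate 1, 2 reads of ANP32A gave 2.5 FPKM, its highest, and 1 read of ANP32E gave 2.61 FPKM, its lowest. The ranges of ANP32B and NCL overlapped, as did those of NCL and NPM1 and of NPM1 and ANP32E, so the order of these neighbours was within the spread between libraries.

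The lengths behind the FPKM values count every annotated exon of a gene once, and this affected the 7 genes unequally. The length used for NPM1 was 4.73 times that of its principal transcript, for NAP1L1 3.84 times and for ANP32A 3.09 times. It was 1.28 times for ANP32B and 1.04 times for ANP32E. Per kilobase of principal transcript, NPM1 had 35.3 reads over the 6 libraries, ANP32B 19.1 and NCL 19.1, so that NPM1 stood above both on that scale. SET with 866 and NAP1L1 with 218 reads per kilobase kept the first places on either scale. ANP32E had 5.51 and ANP32A 1.64 reads per kilobase over the 6 libraries, from few reads. Ratios of FPKM between groups are not touched by length. The scale log2(FPKM + 1) used below is, since the added 1 weighs more at low FPKM, and so is the limit of 1 FPKM for testing. With 0.1 added in place of 1, the log2 fold change of ANP32A went from 0.60 to 1.57, while that of SET stayed at -0.11. Fits on other lengths were not made.

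**Figure D1:**
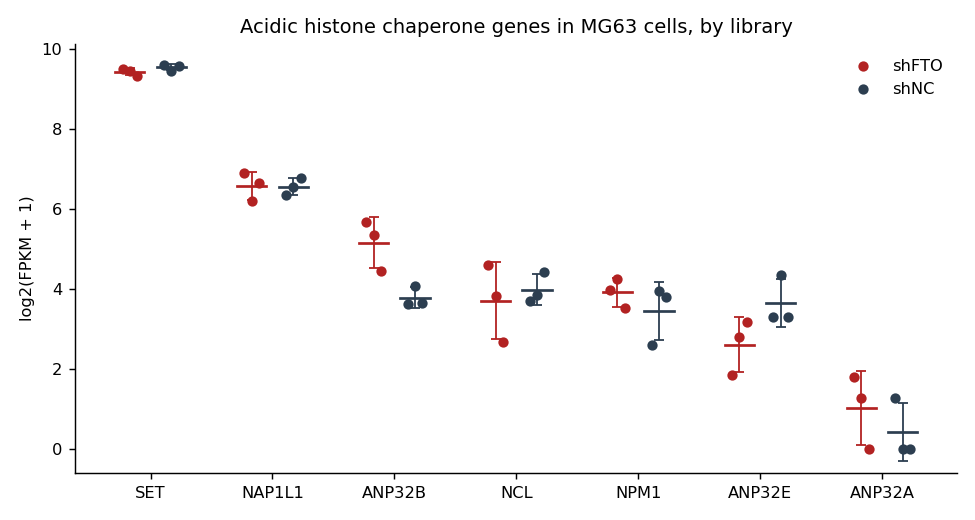
Expression of the 7 genes in each library, on the y axis as log2(FPKM + 1), with shFTO (red, left) and shNC (dark, right) for each gene. Points are libraries, horizontal bars the means and error bars the SD of 3 libraries, both of the log2 values. Only ANP32B, with shFTO libraries above all shNC libraries, and ANP32E, with shFTO libraries below all shNC libraries, show no overlap between groups.

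In the comparison of shFTO with shNC, 0 of the 7 genes passed the threshold, as measured by limma on log2(FPKM + 1) with p-values adjusted over 4932 genes. Over all genes tested 0.0406% were called at an adjusted p under 0.05. By unadjusted p under 0.05 there was 1 of 7, ANP32B, where 3.85% of all genes tested lay. In limma-voom and in a quasi-Poisson fit, both on recovered reads, 0 of the 7 and 0 of the 4 genes with at least 30 reads were called. The estimate lay above 0 for 4 genes and below 0 for 3, with a median log2 fold change of 0.03, against 0.0040 over all genes tested. The groups did not overlap for 2 of the 7, ANP32B and ANP32E, where 6.59% of all genes tested showed no overlap.

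**Figure D2:**
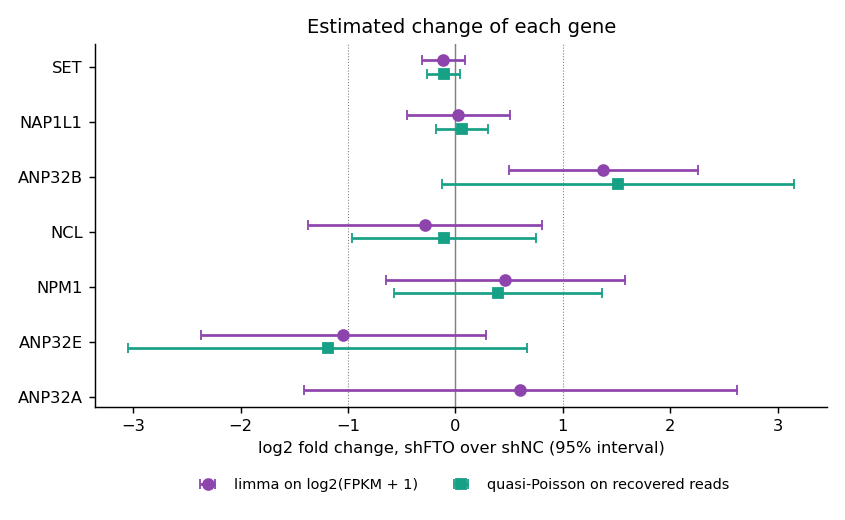
Log2 fold change of shFTO over shNC for each gene with its 95% interval, from limma on log2(FPKM + 1) (circles) and from the quasi-Poisson fit on recovered reads with at least 10 reads (squares, not available for ANP32A). Dotted lines mark a 2-fold difference. The intervals of SET and NAP1L1 lie inside these lines, while those of the 3 ANP32 genes and of NPM1 reach beyond them. For NCL the limma interval reaches beyond them and the quasi-Poisson interval does not.

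SET, a histone chaperone, PP2A inhibitor and proto-oncogene product (ENSG00000119335, GRCh38 chromosome 9, 128683424 to 128696400, plus strand), was the best measured of the 7. It stood at 726, 701 and 643 FPKM in the shFTO libraries, against 778, 698 and 761 FPKM in the shNC libraries. The groups overlapped, since shNC replicate 2 lay between shFTO replicates 2 and 3. The means were 690.0 ± 42.7 FPKM in shFTO and 746 ± 41.8 FPKM in shNC, from 1245 and 1278 reads. The log2 fold change was -0.11 (SE 0.10, limma adjusted p = 0.772), with a 95% interval from -0.31 to 0.09. That interval runs from 0.804-fold to 1.06-fold, so a 2-fold difference lay outside it.

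Reads of SET cannot be separated with certainty from those of its copies. Of 19 SET pseudogenes listed, 2 had reads, and SETP14 (ENSG00000240489, chromosome 3, 155987304 to 155988176, plus strand), annotated as a processed pseudogene, had 450 of the 451. SETP14 is a copy of the whole coding part of the transcript SET-204, aligned from base 242 to 1114 with 14 substitutions, no gap and 98.4% identity. Of its 824 stretches of 50 bases, 339 (41.1%) occur letter for letter in a SET transcript, and of its 774 stretches of 100 bases 97 (12.5%). The 60 coding bases in which copy and gene differ most are shown, with differing bases in capitals, since only such bases tell reads of the copy from reads of SET.
SET-204: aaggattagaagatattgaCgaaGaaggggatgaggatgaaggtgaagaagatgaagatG
SETP14: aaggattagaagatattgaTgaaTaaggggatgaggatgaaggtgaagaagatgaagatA
Counted from the first base of SETP14, with the base of SET-204 first, these are C786T, G790T and G826A. The stretch lies in the acidic end of the coding part, where all but 3 of the 60 bases are the same.

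SETP14 was listed at 906, 937 and 886 FPKM in the shFTO libraries, against 838, 873 and 771 FPKM in the shNC libraries. All 3 shFTO libraries were above all 3 shNC libraries, which was so in this direction for 2.9% of all genes tested. The means were 909.6 ± 26.1 FPKM in shFTO and 827 ± 52.1 FPKM in shNC (limma adjusted p = 0.772), from 241 and 209 reads. Per kilobase of transcript SETP14 had 515 reads over the 6 libraries and SET 885, on the length of SET-204. SETP14 took 15.5%, 16.4% and 16.8% of the reads of the pair in shFTO replicates 1, 2 and 3, and 13.7%, 15.5% and 13.0% in shNC replicates 1, 2 and 3. The exact 95% intervals (Clopper-Pearson) were 12.6 to 18.8%, 13.2 to 20.1% and 13.6 to 20.5% in shFTO, and 10.8 to 17%, 12.4 to 19.0% and 10.1 to 16.3% in shNC. They overlap throughout and cover counting error only. Mean shares were 16.3% ± 0.687 in shFTO and 14.1% ± 1.32 in shNC (SD, n = 3 each, exact two-sided permutation p = 0.2, where 0.1 is the smallest that 3 against 3 allows). With reads of SET and its pseudogenes added up, the log2 fold change was -0.07 (limma adjusted p = 0.786).

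SETSIP, a protein-coding retrogene with 95.6% identity to SET-204 over its aligned part (chromosome 1, 92074533 to 92075411, minus strand), had far fewer reads. It stood at 96.4, 48.4 and 33.0 FPKM in shFTO replicates 1, 2 and 3, from 9, 4 and 3 reads. It stood at 36.2, 11.3 and 36.5 FPKM in shNC replicates 1, 2 and 3, from 3, 1 and 3 reads. The groups overlapped, with shFTO replicate 3 below 2 of the shNC libraries. Its log2 fold change of 1.09 (SE 0.49) had a limma adjusted p of 0.772 and an unadjusted p of 0.0466.

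**Figure D3:**
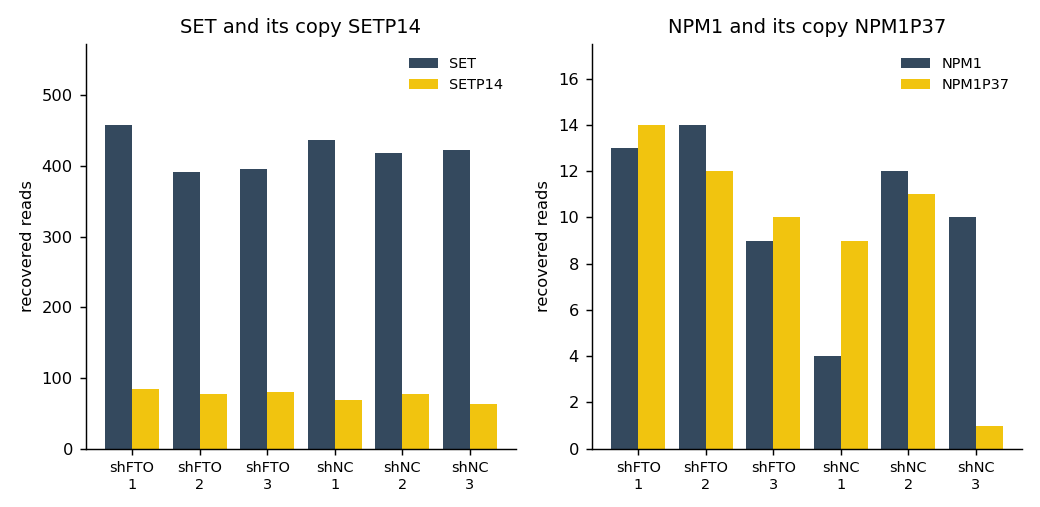
Recovered reads in each library of SET and SETP14 (left panel) and of NPM1 and NPM1P37 (right panel), shFTO libraries first. SETP14 holds 63 to 84 reads beside 392 to 458 of SET, while NPM1P37 holds about as many reads as NPM1 in 4 libraries, more in shNC replicate 1 (9 beside 4) and fewer in shNC replicate 3 (1 beside 10).

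ANP32B, also known as APRIL, is a member of the leucine-rich acidic nuclear phosphoprotein family and binds histones H3 and H4 (ENSG00000136938, chromosome 9, 97983341 to 98015943, plus strand). It stood at 50.3, 39.8 and 20.7 FPKM in the shFTO libraries, against 11.3, 15.9 and 11.4 FPKM in the shNC libraries. Every shFTO library was above every shNC library, and shFTO replicate 3 was the closest to the controls. The values came from 10, 7 and 4 reads in shFTO and from 2, 3 and 2 reads in shNC. The means were 36.9 ± 15.0 FPKM in shFTO and 12.9 ± 2.6 FPKM in shNC, a ratio of 2.87. The log2 fold change was 1.38 (SE 0.43, 95% interval from 0.50 to 2.26), with a limma unadjusted p of 0.00304 and an adjusted p of 0.625, so it was not called. On reads, 21 against 7, the ratio per library total was 2.85 (exact 95% interval 1.17 to 7.95), which covers counting error only. The limma interval, 1.41-fold to 4.78-fold, was narrower than this. Libraries of the same group differed less in ANP32B than counting error gives, with a dispersion of 0.645 where counting error alone gives 1. The small unadjusted p from limma rests on this low spread among few reads. The quasi-Poisson fit gave a log2 change of 1.51 (SE 0.84, unadjusted p = 0.0708, adjusted p = 0.931), and its interval from -0.13 to 3.15 included 0. Limma-voom gave 1.26 with an unadjusted p of 0.0779. Of 434 tested genes with 20 to 40 reads, 5.3% had all shFTO libraries above all shNC libraries as ANP32B did. No pseudogene copy of ANP32B had reads.

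ANP32E, which removes the histone variant H2A.Z from chromatin (ENSG00000143401, chromosome 1, 150218417 to 150236156, minus strand), lay the other way. It stood at 2.61, 5.9 and 8.04 FPKM in the shFTO libraries, against 8.82, 19.2 and 8.89 FPKM in the shNC libraries. The groups did not overlap, but the gap was narrow: shFTO replicate 3 and shNC replicates 1 and 3 each had 3 reads and differed by library size alone. The means were 5.52 ± 2.74 FPKM in shFTO and 12.3 ± 5.99 FPKM in shNC, from 6 and 13 reads. The log2 fold change was -1.04 (SE 0.66, 95% interval from -2.37 to 0.29, limma adjusted p = 0.772). The read ratio was 0.439 with an exact 95% interval from 0.137 to 1.24, so equal levels could not be told from a lower level at this depth.

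ANP32A, the founding member of the family and a PP2A inhibitor (ENSG00000140350, chromosome 15, 68778535 to 68820897, minus strand), was barely detected. It stood at 2.5, 1.41 and 0 FPKM in the shFTO libraries, against 1.4, 0 and 0 FPKM in the shNC libraries. These were 3 reads against 1, with a read ratio of 2.85 and an exact 95% interval from 0.229 to 149.8 (limma adjusted p = 0.867). No statement on a difference was possible at this depth.

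Within the ANP32 family, ANP32B took 10 of 13, 7 of 10 and 4 of 7 family reads in shFTO replicates 1, 2 and 3, and 2 of 6, 3 of 10 and 2 of 5 in shNC replicates 1, 2 and 3. Summed, this was 21 of 30 reads in shFTO, or 70.0% with an exact 95% interval (Clopper-Pearson) from 50.6 to 85.3%, and 7 of 21 in shNC, or 33.3% with an interval from 14.6 to 57.0%. The intervals overlapped, and they cover counting error only, with no allowance for the spread between libraries. ANP32B was the most read of the 3 genes in every shFTO library, and ANP32E was in every shNC library. The FPKM ratio of ANP32E to ANP32B was 0.0519, 0.148 and 0.389 in shFTO replicates 1, 2 and 3, and 0.778, 1.21 and 0.778 in shNC replicates 1, 2 and 3. This division was looked at after both genes were seen to lie in opposite directions, and it was not tested.

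**Figure D4:**
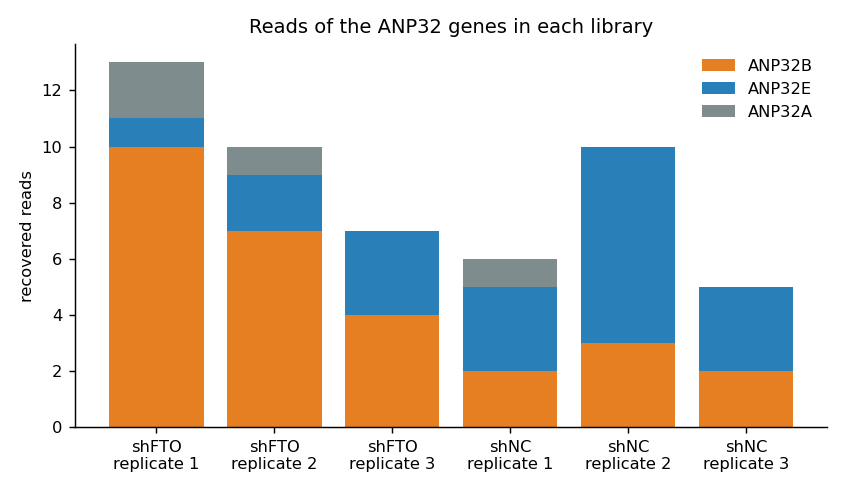
Recovered reads of ANP32B, ANP32E and ANP32A in each library, stacked, with shFTO libraries on the left. ANP32B holds 4 to 10 reads in shFTO libraries and 2 to 3 in shNC libraries, and ANP32E 1 to 3 in shFTO and 3 to 7 in shNC libraries.

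NAP1L1, a carrier of histones H2A and H2B in nucleosome assembly (ENSG00000187109, chromosome 12, 76036585 to 76084735, minus strand), did not separate the groups. It stood at 118, 72.9 and 98.6 FPKM in the shFTO libraries, against 80.8, 91.7 and 108 FPKM in the shNC libraries. The highest and the lowest of the 6 values were both shFTO libraries. The means were 96.5 ± 22.7 FPKM in shFTO and 93.6 ± 13.9 FPKM in shNC, from 505 and 461 reads (log2 fold change 0.03, SE 0.24, 95% interval from -0.45 to 0.50, limma adjusted p = 0.986). A 2-fold difference lay outside that interval, which runs from 0.732-fold to 1.42-fold. Without shFTO replicate 1, shFTO replicate 3 or shNC replicate 1 the estimate was -0.13, -0.0019 and -0.07, below 0. Libraries of the same group differed more in NAP1L1 than counting error gives, with a dispersion of 6.11 where counting error alone gives 1 and the median gene had 1.52. Of its 3 pseudogenes listed, 2 had reads, 4 in all.

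NPM1, a chaperone that shuttles between nucleolus and cytoplasm in ribosome assembly (ENSG00000181163, chromosome 5, 171387116 to 171411810, plus strand), had few reads. It stood at 14.7, 17.9 and 10.5 FPKM in the shFTO libraries, against 5.1, 14.3 and 12.8 FPKM in the shNC libraries. The groups overlapped, and shNC replicate 1 was the lowest library, with 4 reads. The means were 14.4 ± 3.73 FPKM in shFTO and 10.8 ± 4.95 FPKM in shNC, from 36 and 26 reads (log2 fold change 0.47, SE 0.55, 95% interval from -0.65 to 1.58, limma adjusted p = 0.772). Without shNC replicate 1 the estimate was 0.05.

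More reads were listed on copies of NPM1 than on the gene. Of 49 NPM1 pseudogenes 6 had reads, 69 in all, or 52.7% of the reads of the gene and its copies together. NPM1P37, a processed pseudogene (chromosome 6, 69705287 to 69706160, minus strand), had 57 of them. It aligned to the coding part of the principal NPM1 transcript with 54 substitutions, 11 gap bases and 92.7% identity, and 57 of its 825 stretches of 50 bases (6.91%) occur in an NPM1 transcript. The 60 coding bases with the most differences are shown, with differing bases in capitals, to set this copy beside SETP14.
NPM1: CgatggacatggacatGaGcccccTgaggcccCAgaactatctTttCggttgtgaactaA
NPM1P37: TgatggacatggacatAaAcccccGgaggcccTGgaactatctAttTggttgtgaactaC
They differ at 9 of 60 bases, against 3 of 60 for SETP14. NPM1P37 was listed at 151, 146 and 111 FPKM in the shFTO libraries, against 109, 124.6 and 12.2 FPKM in the shNC libraries (limma adjusted p = 0.772). The groups overlapped, and shNC replicate 3 stood apart with 1 read against 9 to 14 in the other libraries. With reads of NPM1 and its pseudogenes added up, the log2 fold change was 0.63 (unadjusted p = 0.129, limma adjusted p = 0.772).

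NCL, a histone chaperone and RNA-binding protein of the nucleolus (ENSG00000115053, chromosome 2, 231453531 to 231483641, minus strand), varied most among the shFTO libraries. It stood at 23.2, 13.1 and 5.42 FPKM in the shFTO libraries, against 11.9, 13.3 and 20.4 FPKM in the shNC libraries. The shNC libraries all lay within the range of the shFTO libraries. The means were 13.9 ± 8.93 FPKM in shFTO and 15.2 ± 4.54 FPKM in shNC, from 38 and 39 reads (log2 fold change -0.28, SE 0.54, 95% interval from -1.37 to 0.81, limma adjusted p = 0.886). The estimate was 0.23 without shFTO replicate 3, and the intervals of both nucleolar genes allow a 2-fold difference in 1 direction. The 3 small nucleolar RNA genes within NCL (SNORD82, SNORA75 and SNORD20) had 0 reads, as had every other gene listed over the span of a member. Reads shared with such genes may have been counted for neither, so these values cannot show whether there were any.

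**Figure D5:**
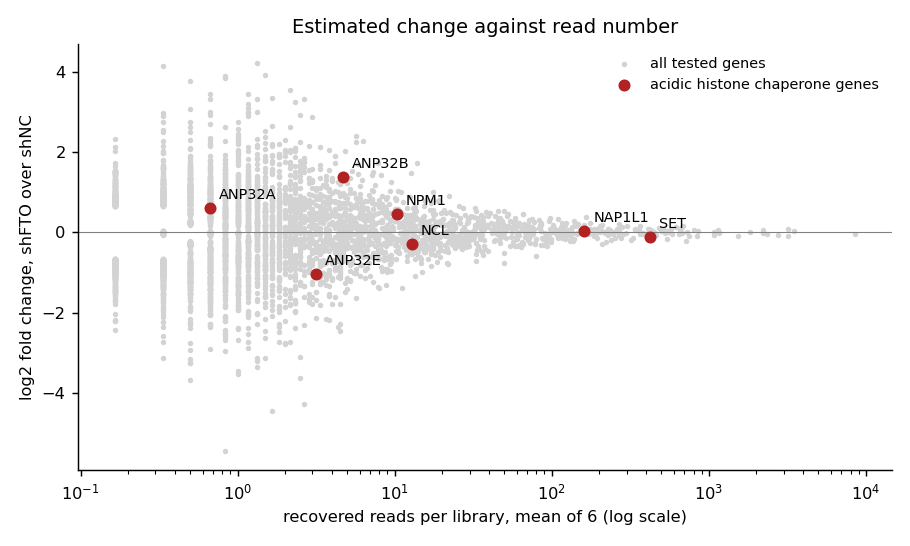
Log2 fold change of shFTO over shNC on the y axis against recovered reads per library on a log scale, for all 4932 genes tested (grey) and the 7 acidic histone chaperone genes (red). Estimates spread widely at low read numbers and narrow with more reads. SET and NAP1L1, at 420.5 and 161 reads per library, lie close to 0, and the ANP32 genes, at 0.667 to 4.67 reads, lie in the wide part.

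Close relatives of the 7 genes were mostly undetected. Of 14 paralogs, 4 had reads and were tested, and 0 passed the threshold in either direction. By unadjusted p under 0.05 in limma there was 1 of 4, SETSIP, where 3.85% of all genes tested lay. An estimate above 0 was found for 3 of the 4, with a median log2 fold change of 0.20 against 0.0040 over all genes tested. SETSIP is the one with more than 3 reads. NAP1L4 and TSPYL2, members of the nucleosome assembly protein family, had 2 reads in shFTO and 1 in shNC each, and TSPYL4 had 0 reads in shFTO and 3 in shNC.

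Other histone chaperones gave the same count of 0. Of 33 genes, 25 had reads and 22 were tested, of which 0 rose and 0 fell in limma, with 0 at an unadjusted p under 0.05. The estimate lay above 0 for 10 and below 0 for 12, with a median log2 fold change of -0.09. RBBP7, a histone H4 binding protein shared by several chromatin complexes, had 269 ± 8.91 FPKM in shFTO and 265 ± 44.6 FPKM in shNC (log2 fold change 0.03, SE 0.15, limma adjusted p = 0.955). It was the only gene of this list with more than 100 reads per library. ATRX, which deposits histone H3.3 with DAXX, had 47 reads in shFTO and 52 in shNC, and SUPT6H, a transcription elongation chaperone, had 37 in shFTO and 39 in shNC. PTMA, an acidic binder of linker histone, had 19.3 ± 7.44 FPKM in shFTO and 25.3 ± 11.5 FPKM in shNC. The groups did not overlap for 1 of the 22, RBBP4, the near relative of RBBP7, with 4.44 ± 1.99 FPKM in shFTO and 8.45 ± 3.35 FPKM in shNC from 13 and 23 reads (limma adjusted p = 0.772), beside the 6.59% over all genes tested. The gap came from library size alone, since shFTO replicate 3 and shNC replicates 2 and 3 each had 6 reads. NASP, a carrier of H3 and H4, had 0 reads in shFTO and 4 in shNC, all of them in shNC replicate 1.

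Among partners of SET and ANP32 proteins, 18 of 20 genes had reads and 14 were tested. Of these 0 rose and 0 fell, and 1 of 14, IGBP1, had an unadjusted p under 0.05 in limma, where 3.85% of all genes tested lay. Estimates were higher for 7 and lower for 7, with a median log2 fold change of 0.0029. Of the PP2A subunit genes with the most reads, PPP2R5E, a regulatory subunit gene, had 28.1 ± 6.81 FPKM in shFTO and 25.5 ± 3.51 FPKM in shNC, and PPP2R2A had 25.4 ± 6.59 FPKM in shFTO and 25.0 ± 6.26 FPKM in shNC. The scaffold subunit gene PPP2R1A had 12.8 ± 2.61 FPKM in shFTO and 14.6 ± 4.97 FPKM in shNC. HSPA8, the constitutive HSP70 chaperone, had 46.3 ± 12.5 FPKM in shFTO and 40.6 ± 11.9 FPKM in shNC. None of these 4 differences exceeded the SD of its groups. HMGB2, a chromatin protein found with SET in the SET complex, had 5 reads in shFTO and 1 in shNC. The groups did not overlap for IGBP1, a binder of the PP2A catalytic subunit, with 1 read in shFTO and 4 in shNC, and for XPO1, the nuclear export receptor, with 11 and 17 reads in shFTO and shNC. These are 2 of 14, where 6.59% of all genes tested showed no overlap. Both gaps came from library size alone: IGBP1 had 1 read each in shFTO replicate 1 and shNC replicates 2 and 3, and XPO1 had 5 reads each in shFTO replicate 1 and shNC replicate 1.

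Of 28 nucleolar partners of NPM1 and NCL, 19 had reads and 14 were tested, and 0 rose and 0 fell. By unadjusted p under 0.05 in limma there was 1 of 14, NOP10, where 3.85% of all genes tested lay. Estimates were higher for 7 and lower for 7, with a median log2 fold change of 0.02. NOP58, a core protein of box C/D small nucleolar ribonucleoproteins, had 49.3 ± 14.2 FPKM in shFTO and 65.4 ± 33.8 FPKM in shNC. FBL, the RNA methyltransferase of the same particles, had 21.9 ± 12.9 FPKM in shFTO and 11.1 ± 6.85 FPKM in shNC. UBTF, a factor of ribosomal RNA transcription, had 14 reads in shFTO and 18 in shNC. The RNA helicase gene DDX21 had 21 reads in shFTO and 7 in shNC, 17 of the 21 in shFTO replicate 2. NOP10, a small nucleolar RNA binding protein, had 0 reads in shFTO and 3 in shNC.

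FTO acts on m6A, which is placed in a family of related sequence contexts of which GGACT is the most common single word. That word was counted on the transcript strand of each principal transcript, and the other words of the family were not counted. The ANP32B transcript holds 3. Of transcripts of like length (80 to 125% of its own), 80.7% hold at least 1 and 23.9% at least 3. That of NCL holds 4, that of ANP32E 2, and those of SET, ANP32A and NPM1 1 each. That of NAP1L1 holds 0, where 97.7% of transcripts of like length hold at least 1, and for SET 93.6% do. The 3 sites of ANP32B are shown with 12 bases on each side and the word in capitals, the first in the coding part and the other two in the 3′ untranslated region.
ANP32B base 844: gaagaagaatttGGACTtgatgaagaaga
ANP32B base 995: tcagtattggttGGACTgctcatggattt
ANP32B base 1154: caccaagcttgtGGACTtcaccccaacaa
These are matches of letters only. No methylation was measured in these libraries, and the number of matches did not set ANP32B apart from transcripts of like length.

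For SET and NAP1L1, which averaged over 100 reads per library, the 2 most similar profiles over the 6 libraries were sought among 149 others by Pearson correlation of log2(FPKM + 1). For SET these were EIF5A, a translation factor gene (r = 0.94), and MSL1, encoding a scaffold of a histone acetyltransferase complex (r = 0.90). For NAP1L1 they were MAT2A, which encodes the enzyme that makes S-adenosylmethionine (r = 0.97), and HNRNPK, an RNA-binding protein gene (r = 0.95). MAT2A stood at 359, 242 and 319 FPKM in the shFTO libraries, against 259.9, 314 and 326 FPKM in the shNC libraries, with the same lowest library as NAP1L1. Each r was the highest of many over 6 points that share their library totals, and it is given as a description.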

How the data were processed

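The authors deposited FPKM values with 2 decimals, exonic lengths and gene coordinates in 1 table, for strand-specific poly(A) RNA libraries of MG63 cells, 3 shFTO and 3 shNC. The submitters' processing notes name build GRCh38, the aligner HISAT2 2.2.1, the counter HTSeq 0.6.1 and the assembler StringTie 1.3.3b. The counter's strand setting is not given in the sources used. FPKM divides by the library total, so abundant genes lower all others.

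Columns were matched to titles by NC or sh and the replicate number. For each library a total between 20000 and 200000 was sought that turned FPKM times length into whole numbers of reads, and 100% of values above 0 were whole within 0.05 read. The 4932 genes that averaged 1 FPKM or more in either group were fitted with limma 3.58.1 in R 4.3.3 on log2(FPKM + 1), with trend and robust moderation and group alone as a term. The quasi-Poisson fit used reads, with moderated dispersion. Both fits were tested on simulated data, with differences placed only in genes of a middle range of read numbers. That range held NPM1 and NCL but not SET, NAP1L1 or the ANP32 genes. Within it limma called few of the simulated 2-fold differences and the quasi-Poisson fit more of them. A gene that was not called is therefore not shown to be equal. Sequences and principal transcripts (lowest-numbered APPRIS principal) came from GENCODE release 29, build GRCh38. Python 3.11.15 with SciPy 1.17.1 was used. P-values measure the spread between these libraries. All pairs of libraries differed by more than counting noise.

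Named genes were the 7 members, up to 4 most-read and 2 smallest-p genes of each of 4 lists, up to 2 copies per member and the 2 most similar profiles. XPO1 and the ANP32 division were chosen after values were seen. The members and lists were chosen with earlier results of these data known. The acidic stretches of ANP32A and ANP32E are not reported here.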

Additional observations from a re-analysis of the deposited data

How the results depend on the processing

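The 7 genes had 97 estimates under alternatives, of which 0 were called and 93 kept their direction. Part of that agreement was fixed in advance. The fits with no filter, with the replicate block and with at least 10 reads per library change p-values but not the estimate. The quasi-Poisson fits at 30 and at 10 reads give the same estimate for the 4 genes in both. The 4 that changed sign came from leaving out 1 library. Those for NAP1L1 ran from -0.13 to 0.21 without 1 library, and those for NCL from -0.73 to 0.23. Estimates for ANP32B ran from 1.11 to 1.74, with unadjusted p from 0.000982 (limma, without shFTO replicate 3) to 0.0779 (limma-voom) and adjusted p from 0.219 to 0.931. Those for ANP32E ran from -1.33 to -0.67. The count of called members was 0 under each alternative. ANP32A could not be tested without shFTO replicate 1 or in the quasi-Poisson fits, and no ANP32 gene had the reads for the fits with at least 10 reads per library or 30 reads in all. At 30 reads, 54 of 1021 genes had an unadjusted p under 0.05.

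The count of genes called over the whole table was 2 as reported. It was 7 with a pseudocount of 0.1, 9 with no filter, 5 in limma-voom, 17 with the replicate block, and 0 with at least 10 reads per library and in the quasi-Poisson fits at 30 and at 10 reads, the last chosen after seeing the data. Without 1 library it ran from 2 to 9. The higher counts had 8 without shFTO replicate 1, 9 without shNC replicate 2 and 7 without shNC replicate 3. The cause was not tested. Higher and lower calls were 13 and 4 with the block, 7 and 2 with no filter, and 5 and 2 with the pseudocount of 0.1, against 0 and 2 as reported. Deviations of same-numbered libraries correlated at -0.0029, 0.0392 and -0.0116. These values give no sign of pairs, but with 3 libraries per group they cannot show that none were made. With the block ANP32B was not called (limma adjusted p = 0.219). Depth limits the 3 ANP32 genes, NPM1 and NCL. NCL also spread between libraries by more than counting error, with a dispersion of 3.23 where the median gene had 1.52.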
